A study of Mus musculus with 10 samples.

Results

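Ccl3 and Ccl4 encode the inflammatory chemokines also called macrophage inflammatory protein 1-alpha and 1-beta. Their features were found by gene symbol in the platform table, which gave 1 feature for each gene, 2 of 6795 named genes on an array of 9596 features. The Entrez identifiers are 20302 for Ccl3 and 20303 for Ccl4, and both genes lie on mouse chromosome 11. The values are log2 ratios from 10 spotted cDNA arrays with 2 channels, each array setting RNA of one condition against RNA of another on the same spots. The conditions were tumour-associated macrophages (TAM) with lipopolysaccharide (LPS), untreated TAM, peritoneal exudate cells (PEC) with LPS and untreated PEC. All came from C57/6N mice, 8 weeks old, as cells that adhered in culture. Tumours had been implanted 3 weeks before the TAM were taken, and LPS was given at 100 ng/mL over 4 hours. The PEC set against TAM were described with the same 3 weeks after implantation, whereas the labels of the arrays of PEC alone name no tumour. The tumour type, the number of animals, any pooling and any purification beyond adherence were not given in the sources used here.

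The 10 arrays make 4 direct comparisons. Untreated TAM were set against untreated PEC on 4 arrays (TAM-8, TAM-3, TAM-2R and TAM-b), PEC with LPS against untreated PEC on PEC1 and PEC2, TAM with LPS against untreated TAM on TAM-trial and TAM-16, and TAM with LPS against PEC with LPS on TAM1 and TAM7. By their labels, TAM1 and TAM-2R carry the conditions in the opposite channels, and their signs were changed to match the remaining 8 arrays. The dyes and the direction of the deposited ratio were not given in the sources used here, so every direction is likely, not certain. It was set by 47 inflammatory and interferon genes, none of them a chemokine, of which 41 lay above 0 on PEC1 (median log2 ratio 1.57) and 41 on PEC2 (median 1.44) when channel 2 was read over channel 1. Neither member entered that choice. Across all features, arrays of 1 comparison correlated weakly (r from 0.036 to 0.329). The 3 arrays of print v9p2, each from another comparison, correlated more strongly (TAM-8 with TAM7 at 0.568, TAM-8 with TAM-trial at 0.52 and TAM7 with TAM-trial at 0.433). In untreated TAM against PEC, TAM-2R and TAM-3 correlated with the other arrays at r from 0.036 to 0.101, so Ccl3 and Ccl4 are given there without each as well. Other genes called in that comparison are not given without either array. The count of calls over all genes and features fell there from 41 to 13 without TAM-2R and to 19 without TAM-3. The labels name an array print, which was v3p6 on 6 arrays, v9p2 on 3 and v1p1 on PEC1. The labels do not say whether arrays of a comparison hold RNA of separate mice or cultures. The p-values therefore describe the array-to-array spread alone, possibly a technical one, and precision is limited by how few arrays there are.

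CC chemokines are small secreted proteins that draw leukocytes along a gradient by binding G protein-coupled receptors. Ccl3 and Ccl4 both attract monocytes, T cells and natural killer cells. Activated macrophages are a main source of both, and LPS, a component of the outer membrane of Gram-negative bacteria, induces them through Toll-like receptor 4 and the transcription factor NF-kB. In the RefSeq table of assembly GRCm38.p6, the protein-coding Ccl genes of chromosome 11 form a pair of groups. Ccl3 and Ccl4 are next to each other in the group that also holds Ccl5, Ccl9 and Ccl6, and their annotated spans overlap.

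The stretch of 250 bases before the annotated start of Ccl3 is shown because Ccl3 is one of the 2 members, and that of Nfkbia, which encodes the NF-kB inhibitor I-kappa-B-alpha, because Nfkbia was among the genes nearest to Ccl3 in pattern. Capitals mark motif matches. Both come from RefSeq, build GRCm38.p6, minus strand, Ccl3 at chr11:83649379-83649628 and Nfkbia at chr12:55492648-55492897.
Ccl3: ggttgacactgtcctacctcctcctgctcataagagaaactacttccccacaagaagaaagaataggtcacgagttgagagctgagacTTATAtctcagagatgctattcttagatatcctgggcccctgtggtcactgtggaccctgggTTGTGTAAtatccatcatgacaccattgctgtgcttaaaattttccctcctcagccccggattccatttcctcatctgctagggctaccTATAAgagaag
Nfkbia: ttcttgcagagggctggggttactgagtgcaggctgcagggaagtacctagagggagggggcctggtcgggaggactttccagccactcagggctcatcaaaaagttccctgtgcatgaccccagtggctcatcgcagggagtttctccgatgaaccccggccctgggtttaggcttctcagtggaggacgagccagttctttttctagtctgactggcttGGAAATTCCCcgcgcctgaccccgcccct
In Ccl3 the capitals are the TATA-like letters TATAA, beginning 162 bases before the start on the opposite strand and 11 bases before it on the same strand, and the C/EBP-like motif TTNNGNAA, 100 bases before the start. In Nfkbia they are the NF-kB consensus, which begins 29 bases before the start and reads GGGAATTTCC on the opposite strand. These matches do not overlap each other. Both strands were searched, and of 32851 promoters of the same length 22.8% held TATAA, 36.8% TTNNGNAA, 7.3% the NF-kB consensus and 6.7% the AP-1 motif TGANTCA. The Ccl3 stretch held no match to the NF-kB consensus or to TGANTCA, which says only that these letters are not in this window. Promoters were matched by symbol for 8 of the 10 genes described here, those not matched being Ccl4 and St3gal1. An NF-kB consensus was in 3 of the 8 (Nfkbia, Tnip1 and Sdc4).

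After LPS in PEC, both chemokines had log2 ratios above 3 on both arrays, which did not pass the test over all genes. Ccl3 had a log2 ratio of 3.63 on PEC1 and 6.26 on PEC2, a 12.4-fold and a 76.5-fold excess. Ccl4 had 3.54 on PEC1 and 6.38 on PEC2, or 11.6-fold and 83.3-fold. Within each array the pair lay close together, and PEC2 was the higher array for both. On PEC2, 8 of 9596 features lay above Ccl3 and 5 above Ccl4, and on PEC1 65 and 68 did. The mean log2 ratio was 4.94 ± 1.86 for Ccl3 (30.7-fold, SD, n = 2, 95% interval of the fit 2.54 to 7.34) and 4.96 ± 2.01 for Ccl4 (31.1-fold, SD, n = 2, interval 2.34 to 7.59).

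In limma with Benjamini-Hochberg adjustment over 8905 genes and unnamed features, neither member passed a threshold of 0.05 for this response (adjusted p = 0.251 for Ccl3 and 0.302 for Ccl4). The background was 0.0112% of genes and features called, or 1 of 8905. By unadjusted p, Ccl3 was the 35th and Ccl4 the 54th of the 8905. A mean of 2 or more on the log2 scale was reached by 2.04% of genes and features. Macrophage markers were also mostly above 0 on these arrays (7 of 8 measured, median log2 ratio 1.17), against 48.1% of all genes and features. The part of these markers in the chemokine values was not tested. PEC1 and PEC2 had the same channel order, so a dye effect of a gene would stay in these means. With a dye term in the fit the response was 3.74 for Ccl3 and 3.24 for Ccl4 on the log2 scale (adjusted p = 0.847 for each). When all 10 arrays were fitted as a loop of 4 conditions, Ccl3 passed (log2 ratio 4.90 ± 0.86, standard error, adjusted p = 0.0484) and Ccl4 narrowly did not (5.17 ± 0.95, standard error, adjusted p = 0.055), against a background of 0.314% called. The loop takes PEC from arrays with and without a named tumour implantation as the same. The Ccl3 call in the loop fit was kept with 2 of the 10 arrays left out in turn (TAM-2R and TAM-3) and lost with each of the other 8 (adjusted p up to 0.36). That of Ccl4 was reached without TAM-2R (log2 ratio 5.49, adjusted p = 0.015). In the loop fit the Ccl3 call was also lost with a dye term (3.58, adjusted p = 0.65), with print as a term (5.71, adjusted p = 0.16) and with the exchanged arrays not turned (4.2, adjusted p = 0.857).

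**Figure D1:**
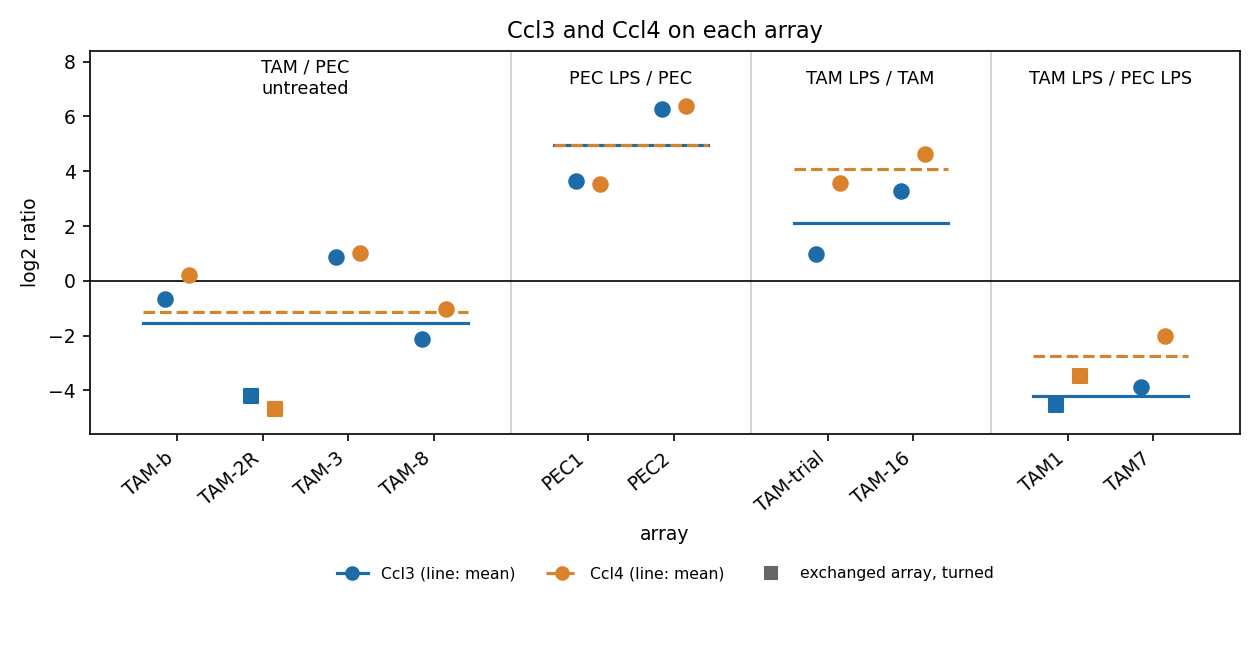
Log2 ratio of Ccl3 (blue) and Ccl4 (orange) on each of the 10 arrays, by direct comparison, with horizontal lines at the mean of a comparison and squares for the 2 exchanged arrays after turning. Both genes are above 0 on the 4 arrays of LPS against no LPS and below 0 on TAM1 and TAM7, and spread on both sides of 0 in untreated TAM against PEC.

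After LPS in TAM, both chemokines lay above 0 on both arrays, Ccl4 further than Ccl3, and neither passed the test. Ccl4 had a log2 ratio of 3.56 on TAM-trial and 4.62 on TAM-16, which was 11.8-fold and 24.7-fold. Ccl3 had 0.97 on TAM-trial and 3.28 on TAM-16, or 1.96-fold and 9.72-fold. Ccl4 thus stood near the top of both arrays, with 83 features above it on TAM-trial and 4 on TAM-16. Ccl3 stood near the top on TAM-16, with 14 features above it, and at the 83.6th percentile on TAM-trial. The means were 4.09 ± 0.75 for Ccl4 (17.1-fold, SD, n = 2, interval 1.47 to 6.72) and 2.12 ± 1.64 for Ccl3 (4.36-fold, SD, n = 2, interval -0.28 to 4.52). Both arrays were above 0 for both genes, and a mean of 2 or more was reached by 0.719% of genes and features. TAM-trial and TAM-16 too had the same channel order, and with a dye term the responses were 2.37 for Ccl4 and 0.93 for Ccl3. Of the 8 measured macrophage markers, 7 lay below 0 here (median log2 ratio -0.91), where 43.2% of all genes and features lay above 0 (median -0.13). Neither member passed the test (adjusted p = 0.827 for each), nor did any of the 8905 genes and features in limma (background 0%, with 497 at an unadjusted p under 0.05, and 0 in the loop fit).

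Ccl4 exceeded Ccl3 on both TAM arrays, by 2.60 on TAM-trial and 1.34 on TAM-16 on the log2 scale. In PEC the same difference was -0.08 on PEC1 and 0.12 on PEC2. In TAM with LPS against PEC with LPS, Ccl4 again lay above Ccl3, by 1.06 on TAM1 and 1.87 on TAM7. In untreated TAM against PEC it lay between -0.51 and 1.11 from it. In each of these comparisons with an array of print v9p2, that array had the largest difference (TAM-8 at 1.11, TAM7 at 1.87 and TAM-trial at 2.60). PEC1 and PEC2 are of other prints. Within print v3p6 the difference after LPS was 1.34 on TAM-16 and 0.12 on PEC2. The part of print in these differences was not tested. With 2 arrays a comparison, no test of this difference between the genes was run. Whether either spot also bound mRNA of a related chemokine was not tested.

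With LPS present in both cell types, both chemokines lay below 0 in TAM against PEC on both arrays, again without passing the test. Ccl3 had a log2 ratio of -4.54 on TAM1 and -3.88 on TAM7, 23.2-fold and 14.7-fold lower. Ccl4 had -3.48 on TAM1 and -2 on TAM7, 11.1-fold and 4.01-fold lower. Both arrays placed both genes at the low end, with 74 and 17 features below Ccl3 and 118 and 213.5 (ties shared) below Ccl4 on TAM1 and TAM7. The means were -4.21 ± 0.47 for Ccl3 (18.5-fold, SD, n = 2, interval -6.61 to -1.81, adjusted p = 0.242) and -2.74 ± 1.04 for Ccl4 (6.68-fold, SD, n = 2, interval -5.37 to -0.11, adjusted p = 0.523). Neither passed, and the background was 0.0674% called. Means of 2 or more below 0 were reached by 2.41% of genes and features. The arrays have opposite channel orders, so a dye effect of a gene cancels in the mean if TAM1 was exchanged as labelled.

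In the loop fit the difference of Ccl3 passed (log2 ratio -4.25 ± 0.86, standard error, adjusted p = 0.0392), against a background of 1.54% called, and that of Ccl4 did not (-2.53 ± 0.95, standard error, adjusted p = 0.246). The Ccl3 call was kept with 3 of the 10 arrays left out in turn (TAM-2R, TAM-3 and TAM-16) and lost with each of the other 7 (adjusted p up to 0.22). It was kept with a dye term (-4.41, adjusted p = 0.0237) and lost with print as a term (-4.03, adjusted p = 0.369). If TAM1 had not been exchanged, its values would be 4.54 for Ccl3 and 3.48 for Ccl4, opposite to TAM7, and the means would be 0.33 ± 5.95 and 0.74 ± 3.87 (SD, n = 2). With both exchanged arrays not turned, the loop fit gave -0.41 for Ccl3 (adjusted p = 1).

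Markers of macrophages lay on the same side of 0 in this comparison. Of the 8 measured of 14 listed, 8 lay below 0 in TAM with LPS against PEC with LPS, with a median log2 ratio of -1.93 (array medians -1.88 and -1.72, and a median of 0.11 with TAM1 not turned), and 7 of 8 lay below 0 in untreated TAM (median -0.75). They included Cd68, a lysosomal glycoprotein of macrophages (-3.50), and Lyz2, the lysozyme of myeloid cells (-2.71), neither of which passed (adjusted p = 0.199 and 0.242). The part of these markers in the chemokine values was not tested. In bulk RNA, fewer cells of a type and less RNA per cell cannot be told apart, and a ratio gives no level, so the presence of the markers themselves could not be checked. Neutrophils and T and natural killer cells can also make both chemokines. Between TAM and PEC with LPS, 6 of 11 measured neutrophil markers (16 listed) lay above 0 (median 0.19) and 7 of 9 T and natural killer cell markers (18 listed, median 0.38), with 0 called in either list. Of all genes and features, 55.7% lay above 0 there (median 0.08), and the neutrophil count was near that share. In untreated TAM against PEC 48.7% lay above 0 (median -0.02).

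In untreated cells the chemokines did not separate TAM from PEC beyond the spread of the arrays. Ccl3 had log2 ratios of -0.65 on TAM-b, -4.20 on TAM-2R, 0.86 on TAM-3 and -2.13 on TAM-8. Ccl4 had 0.20 on TAM-b, -4.70 on TAM-2R, 1 on TAM-3 and -1.02 on TAM-8. TAM-2R was the lowest array for both, at the 1st percentile or below, and TAM-3 the highest. The mean was -1.53 ± 2.16 for Ccl3 (2.89-fold lower, SD, n = 4, interval -3.23 to 0.17, adjusted p = 0.383), below 0 on 3 of 4 arrays. It was -1.13 ± 2.52 for Ccl4 (2.19-fold lower, SD, n = 4, interval -2.99 to 0.73, adjusted p = 0.542), below 0 on 2 of 4. Neither passed, and the background was 0.46% called, with 48.7% of means above 0. Within print v3p6 (TAM-b, TAM-2R and TAM-3) the means were -1.33 for Ccl3 and -1.17 for Ccl4. Without TAM-2R the means were -0.64 for Ccl3 and 0.06 for Ccl4, so the direction of Ccl4 rested on that array. Without TAM-3 they were -2.33 for Ccl3 and -1.84 for Ccl4. With TAM-2R not turned they were 0.57 and 1.22. Only TAM-2R has the opposite channel order here, so a dye effect of a gene would not cancel in these means. With a dye term in the limma fit they were -2.13 for Ccl3 and -1.99 for Ccl4 (adjusted p = 0.251 and 0.236). On the same arrays the median of 11 measured neutrophil markers, of 16 listed, lay between 0.07 and 1.92 by array. That of 10 measured fibroblast markers, of 15 listed, lay between -0.44 and 1.85, with 8 of 10 means above 0 (median 0.80). The part of either list in the values was not tested.

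The LPS response in TAM minus that in PEC could be estimated from separate sets of arrays, if the PEC of all arrays are taken as the same. From the 4 arrays of LPS against no LPS, the response of Ccl3 in TAM minus that in PEC was -2.82 on the log2 scale, a response 7.05-fold smaller. From the 6 arrays of TAM against PEC, the difference with LPS minus the difference without it was -2.68, or 6.39-fold. These estimates share no array and differed by 0.14, or by 2.58 with the exchanged arrays not turned. The interval of this mismatch with turning was -4.35 to 4.63, which holds both values. For Ccl4 the estimates were -0.87 (1.82-fold) and -1.61 (3.05-fold), which differed by 0.74, or by 0.38 with the exchanged arrays not turned. The interval with turning was -5.66 to 4.17. With intervals this wide, the mismatch cannot decide whether the turning is right. The absolute mismatch over all genes and features had a median of 0.76, and it was smaller than that of Ccl3 for 10.2% of them and smaller than that of Ccl4 for 49.1%.

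Neither difference of responses passed the test. For Ccl3 the adjusted p was 0.788 (interval -6.21 to 0.58) and for Ccl4 0.998 (interval -4.58 to 2.85), with 0% called in limma (612 at an unadjusted p under 0.05). The loop fit, which joins both sets of arrays, gave -2.74 ± 0.94 for Ccl3 (standard error, interval -4.81 to -0.66, adjusted p = 0.337) and -1.29 ± 1.04 for Ccl4 (standard error, interval -3.58 to 0.99, adjusted p = 0.73), also with 0 called. With PEC2 left out, the difference of Ccl4 from the LPS arrays turned to 0.55, and with PEC1 left out it was -2.29. For Ccl3 it lay between -4.13 and -1.50 whichever array was left out.

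The loop fit also orders the 4 conditions on 1 scale, with untreated PEC set to 0. It takes the PEC of all arrays as the same, although only those set against TAM were described with a tumour implantation. Whether these PEC differ was not tested. For Ccl3 the log2 levels were -1.51 ± 0.67 in untreated TAM, 0.65 ± 0.94 in TAM with LPS and 4.90 ± 0.86 in PEC with LPS (standard errors). For Ccl4 they were -1.24 ± 0.73 in untreated TAM, 2.65 ± 1.04 in TAM with LPS and 5.17 ± 0.95 in PEC with LPS. With TAM-2R and TAM1 turned, the order was untreated TAM, untreated PEC, TAM with LPS and PEC with LPS for both genes. With neither turned, untreated TAM lay above untreated PEC (0.94 for Ccl3 and 1.28 for Ccl4), and for Ccl4 TAM with LPS lay above PEC with LPS (by 0.63), so the order rests on the turning. Of the neighbours in this order, PEC with LPS and TAM with LPS passed for Ccl3 in the loop fit (adjusted p = 0.0392), though not in the main limma fit (adjusted p = 0.242). That call was lost with most of the arrays left out in turn, with print as a term and with the exchanged arrays not turned. Untreated TAM and untreated PEC did not pass (adjusted p = 0.398 for Ccl3 and 0.514 for Ccl4), nor did TAM with LPS and untreated PEC (0.781 and 0.35), nor TAM and PEC with LPS for Ccl4 (0.246). These levels compare conditions within a gene, not Ccl3 with Ccl4.

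**Figure D2:**
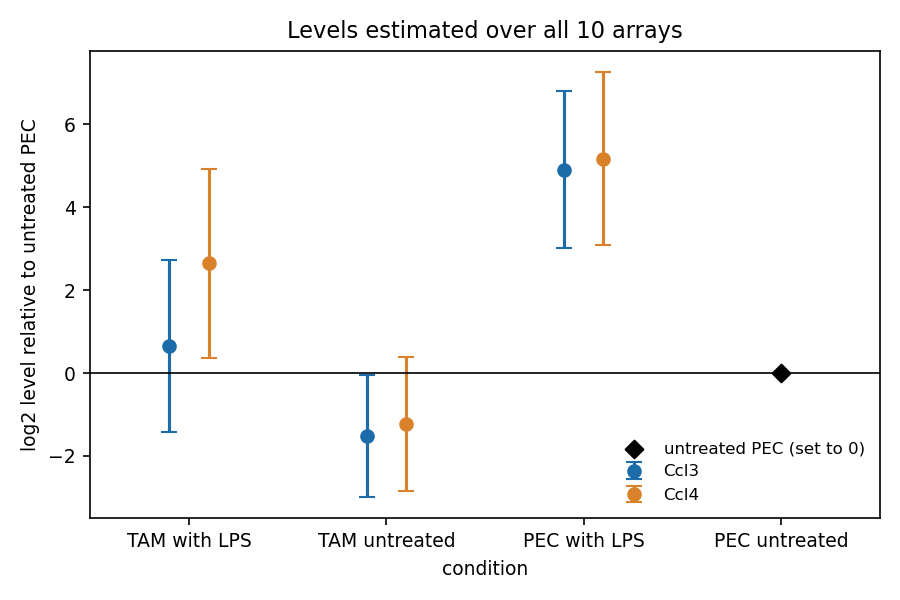
Log2 level of Ccl3 (blue) and Ccl4 (orange) in TAM with LPS, untreated TAM and PEC with LPS relative to untreated PEC (black, set to 0), from the loop fit over 10 arrays; bars are 95% intervals. TAM with LPS is at 0.65 for Ccl3 and 2.65 for Ccl4, both below PEC with LPS at 4.90 and 5.17.

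Of the 23 CC chemokine genes listed, 16 were measured. Among the members' neighbours on chromosome 11, Ccl5 had like means after LPS in TAM and PEC. Ccl9 and Ccl6 had lower means in TAM than in PEC. Ccl5, a T cell attractant, had a mean log2 ratio of 4.53 ± 0.92 after LPS in TAM and 4.35 ± 0.21 in PEC (SD, n = 2 each, adjusted p = 0.145 and 0.135), so that its response in TAM minus that in PEC was 0.18. Ccl9, a chemokine of myeloid cells, had -0.44 ± 1.39 in TAM and 2.62 ± 0.26 in PEC (SD, n = 2 each, adjusted p = 0.936 and 0.251). Ccl6, from the same group, had -0.24 ± 0.43 in TAM and 1.42 ± 0.71 in PEC (SD, n = 2 each, adjusted p = 0.962 and 0.51). The response in TAM minus that in PEC was -3.06 for Ccl9 and -1.65 for Ccl6 (limma, adjusted p = 0.719 and 0.74). It was -2.82 for Ccl3 and -0.87 for Ccl4. Whether the patterns of these genes differ was not tested. In untreated TAM against PEC, Ccl6 fell (-3.25 ± 0.64, SD, n = 4, adjusted p = 0.00997), as the 1 CC chemokine past the test there. The background was 0.46% of all genes and features called. With the exchanged arrays not turned, 0 of the 8905 genes and features passed in that comparison, Ccl6 included. In TAM with LPS against PEC with LPS, Ccl3 had the lowest mean of the 16 with TAM1 turned, followed by Ccl9 (-3.38 ± 0.15) and Ccl6 (-3.29 ± 1.24, SD, n = 2 each), which narrowly missed the threshold (adjusted p = 0.0557 for each).

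Monocyte attractants of the other group on chromosome 11 had lower means than Ccl3 and Ccl4 after LPS. Ccl2, the main ligand of Ccr2, had -0.94 ± 3.48 after LPS in TAM and 2.34 ± 1.82 in PEC, and Ccl7 had -0.92 ± 1.28 in TAM and 1.09 ± 0.54 in PEC (SD, n = 2 each, adjusted p from 0.724 to 0.943). Leaving the members out, 6 of 14 CC chemokines lay above 0 after LPS in TAM (median -0.31), against 43.2% of all genes and features (median -0.13). In PEC 11 of 14 did (median 1.14), against 48.1% (median -0.04). In TAM with LPS against PEC with LPS 11 of 14 lay below 0 (median -0.58), where 55.7% of all genes and features lay above 0 (median 0.08), and 7 of 14 lay below 0 with TAM1 not turned (median -0.02). None of the 14 passed in any comparison other than Ccl6 in untreated TAM.

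**Figure D3:**
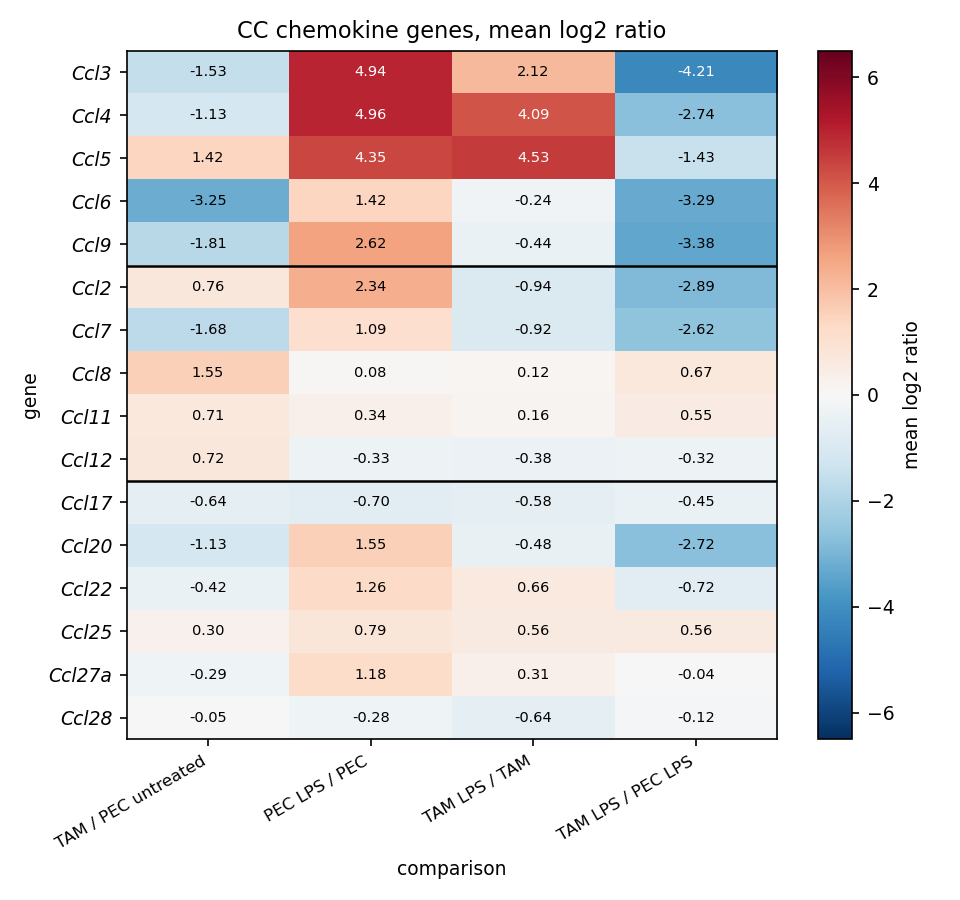
Mean log2 ratio of the 16 measured CC chemokine genes in the 4 comparisons, red above 0 and blue below; black lines set off the group of Ccl3 and Ccl4 on chromosome 11, the other group there, and the remaining genes. Ccl3, Ccl4 and Ccl5 are the reddest after LPS in PEC (4.94, 4.96 and 4.35), and Ccl3 is the lowest in TAM with LPS against PEC with LPS (-4.21).

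After LPS in TAM, the measured genes that carry the LPS signal to NF-kB lay on both sides of 0, without a clear direction. Of the 25 listed genes of the LPS receptor and NF-kB pathway, 9 were measured, and 5 of the 9 lay above 0 after LPS in TAM (median 0.19, against 43.2% of all genes and features) and 9 of 9 in PEC (median 0.96, against 48.1%). In TAM with LPS against PEC with LPS 8 of 9 lay below 0 (median -1.19), a direction that turned with TAM1 not turned (median 0.39). Of all genes and features, 55.7% lay above 0 in that comparison. The highest means in PEC were those of the adaptor Myd88 (2, and -0.30 in TAM, adjusted p = 0.446 and 0.962) and the NF-kB subunit Rela (1.37, and -0.06 in TAM, 0.455 and 0.992). The highest in TAM were those of Tab1, which encodes a partner of the kinase Tak1, and Lbp, which encodes the LPS-binding protein. Tab1 had 2.96 ± 3.29 in TAM (5.28 on TAM-trial and 0.63 on TAM-16) and 0.42 ± 0.65 in PEC (SD, n = 2 each). Lbp had 1.16 ± 1.12 in TAM and 0.54 ± 0.70 in PEC (SD, n = 2 each), with adjusted p from 0.827 to 0.981 for both genes. Picked as the highest means of a cell type, these genes do not by themselves show opposite responses. Of 20 listed inhibitors and mRNA decay factors, 11 were measured, with 8 above 0 after LPS in TAM (median 0.81), 10 in PEC (median 1.38) and 10 below 0 in TAM with LPS against PEC with LPS (median -1.13, and 0.49 with TAM1 not turned). In both lists 0 genes were called in the 4 comparisons.

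Among the other inflammatory genes (24 measured of 35 listed) and the interferon response genes (23 measured of 41 listed), 4 genes passed a test. These lists set the direction of the values, so their upward direction in PEC with LPS is no result. In untreated TAM against PEC, the acute phase gene Saa3 fell (-6.61 ± 1.05, adjusted p = 0.00042), as did Plaur, the urokinase receptor gene (-2.36 ± 0.36, SD, n = 4 each, adjusted p = 0.0106). The interferon response genes Ly6e (2.76 ± 0.55, adjusted p = 0.0152) and Irf7, which encodes a transcription factor (2.34 ± 0.55, SD, n = 4 each, adjusted p = 0.0412), rose there. In TAM with LPS against PEC with LPS, Plaur fell (-4.15 ± 0.62, SD, n = 2, adjusted p = 0.00754). Over all genes and features, 0.46% were called in untreated TAM against PEC and 0.0674% in TAM with LPS against PEC with LPS. With the exchanged arrays not turned, 0 genes and features passed in either comparison.

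The genes nearest to Ccl3 in pattern were found by the uncentred correlation over the 10 arrays, a measure that does not depend on the turning of arrays, among 6794 other named genes. They were Socs3, a feedback inhibitor of cytokine signalling (0.985), Nfkbia (0.984), the cytokine Tnf (0.961), Tnip1, which encodes a partner of the NF-kB inhibitor A20 (0.959), and the kinase Pim1 (0.957). Those nearest to Ccl4 were the transcription factor Stat3 (0.973), Tnip1 (0.972), Socs3 (0.960), the cell surface proteoglycan Sdc4 (0.952) and the sialyltransferase St3gal1 (0.947). The members' likeness to each other was 0.939, which placed each the 7th nearest of the other. These are descriptions over arrays that share conditions. Of each set of 5, the Pearson correlation kept 3 for Ccl3 and 4 for Ccl4, and leaving out the exchanged arrays kept 4 and 3.

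After LPS in PEC, each of the 8 nearest genes had a smaller mean than both members (0.86 for St3gal1 to 3.71 for Socs3). Socs3 was at 2.59 and 4.83 on PEC1 and PEC2, 0.82 and 2.42 on TAM-trial and TAM-16, and -2.75 and -2.33 on TAM1 and TAM7. Nfkbia was at 2.32 and 3.69 on PEC1 and PEC2, 0.01 and 1.62 on TAM-trial and TAM-16, and -2.20 and -1.79 on TAM1 and TAM7. Like Ccl3, both were near 0 to 1 on TAM-trial and low on TAM-2R (-3.55 and -1.97). Sdc4, which was near Ccl4 and outside the nearest 5 of Ccl3 by this measure, was at 2 on TAM-trial and 3.37 on TAM-16. The 8 nearest genes had adjusted p-values above the threshold in all 4 comparisons.

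**Figure D4:**
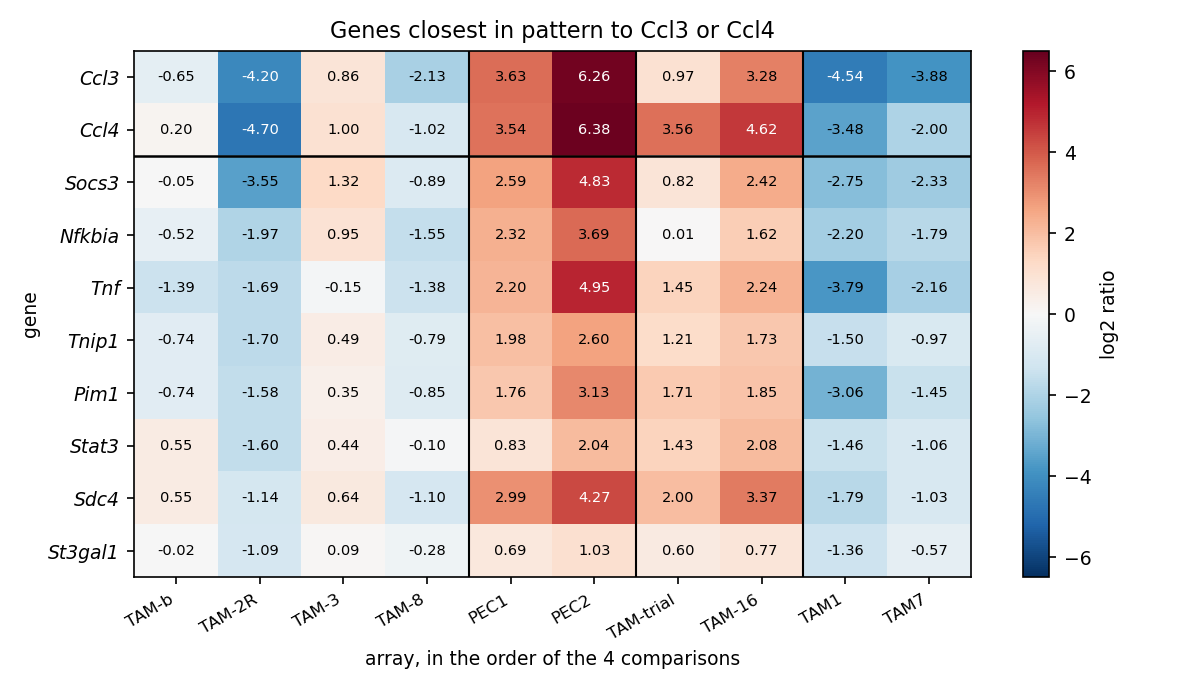
Log2 ratio of Ccl3, Ccl4 and the 8 genes nearest to either in pattern on each of the 10 arrays, with black lines between the 4 comparisons (untreated TAM against PEC, PEC with LPS against PEC, TAM with LPS against TAM, TAM with LPS against PEC with LPS). On TAM-trial Ccl4 is at 3.56 while Ccl3 is at 0.97, Socs3 at 0.82 and Nfkbia at 0.01.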

How the data were processed

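RNA of mouse TAM and PEC was measured on 10 two-channel cDNA arrays. For each array the authors deposited a log ratio for every feature, read here as log2 of channel 2 over channel 1. Its base, scale, centring and direction were not given in the sources used here; the largest absolute value was 11.687, and array medians lay between -0.199 and 0.022. Image analysis, background correction, spot filters and intensities are not given there either, which left no means of removing dim spots, and no value was missing.

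Features were named by the platform table (7486 with 1 symbol, 483 with several, 1627 with none). Features of 1 gene were averaged, which gave 8905 genes and unnamed features; 7395 Entrez identifiers matched RefSeq and 0 symbols needed an update. limma 3.58.1 in R 4.3.3 fitted 1 mean per direct comparison on all 10 arrays (6 residual degrees of freedom), with two-sided p-values adjusted by Benjamini-Hochberg over all 8905 within a comparison. The fit was tested on simulated data. The loop fit used 3 parameters for the 4 conditions, with the PEC of all arrays taken as the same. Alternatives were the channel coding, a dye term, scaling, centring, robust moderation, own arrays, print v3p6, a print term, single features and each array left out. The members, lists and tests were chosen with earlier results of these data known. Genes were named by a fixed rule, namely the members, the 5 nearest to each, list genes past the threshold, otherwise at most the 2 highest and 2 lowest means of a list, and any CC chemokine.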

Additional observations from a re-analysis of the deposited data

How the results depend on the processing

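Over the planned and added alternatives, the sign of the LPS responses in TAM and in PEC held for both genes, and other results moved as follows. With the exchanged arrays not turned, untreated TAM against PEC was 0.57 for Ccl3 and 1.22 for Ccl4 (0.94 and 1.28 in the loop fit), TAM with LPS against PEC with LPS was 0.33 and 0.74 (0.63 for Ccl4 in the loop fit), and the mismatch of the loop was 2.58 for Ccl3 and 0.38 for Ccl4. In the loop fit both Ccl3 calls were then lost (4.2 in PEC with LPS against PEC and -0.41 in TAM with LPS against PEC with LPS). A dye term lowered the LPS responses in TAM to 0.93 for Ccl3 and 2.37 for Ccl4, and in PEC to 3.74 and 3.24; in the loop fit it kept the call of Ccl3 in TAM with LPS against PEC with LPS (-4.41) and lost that in PEC. With print as a term, added after seeing the data, both loop calls were lost, and the responses in PEC, then from PEC2 alone within its print, were 6.26 and 6.38. The loop fit added calls for Ccl3, PEC with LPS against PEC (4.90) and TAM with LPS against PEC with LPS (-4.25). With scaled arrays in the loop fit these were 5.63 and -4.83, and Ccl4 passed in PEC too (5.78, adjusted p = 0.0206). With centred arrays only the second was kept (-4.25, adjusted p = 0.0469). The mismatch of the loop had an interval on both sides of 0 in the main analysis. It changed sign for Ccl4 with a dye term (0.12) and with print as a term (0.72). For Ccl3 it changed sign with scaled arrays (-0.37), centred arrays (-0.02), print v3p6 alone (-0.23) and both exchanged arrays left out (-0.41). That last setting gave 0.06 for Ccl4 in untreated TAM against PEC.

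Leaving out each array in turn, Ccl4 ranged from -1.84 to 0.06 in untreated TAM against PEC and from -2.29 to 0.55 for the difference of LPS responses, and the mismatch from -1.17 to 1.46 for Ccl3 and from -2.16 to 0.68 for Ccl4. In the loop fit, PEC with LPS against PEC ranged from 4.15 to 5.61 for Ccl3 and from 4.5 to 6.08 for Ccl4, and TAM with LPS against PEC with LPS from -4.53 to -3.95 for Ccl3. Calls in the loop fit came without TAM-2R (5.15 and -4 for Ccl3 in these comparisons, 5.49 for Ccl4 in the first), without TAM-3 (4.69 and -4.46 for Ccl3) and without TAM-16 (-4.5 for Ccl3 in the second).

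Counts of calls over all genes and features moved by over 1.5 times in several settings. That of untreated TAM against PEC was 41, against 0 not turned, 17 with a dye term, 12 scaled, 2 on its own arrays, 0 within print v3p6, 9 without the exchanged arrays, 11 with print as a term and 6 to 24 with 1 array left out. That of PEC with LPS was 1, against 2 not turned, 28 in the loop fit, 3 scaled, 0 on its own arrays or within the print, 84 with print as a term, and up to 85 with 1 array left out. That of TAM with LPS against PEC with LPS was 6, against 0 not turned, on its own arrays, within the print or with print as a term, 137 in the loop fit, 97 scaled and 3 to 11 with 1 array left out. That of TAM with LPS against TAM was 0, against 1 scaled and up to 3 with 1 array left out, and that of the difference of responses 0, against 42 with print as a term and up to 47 with 1 array left out. The cause of these moves was not tested. No paired analysis was possible because each array already holds both conditions of a pair and arrays of different comparisons share no sample that the labels name. Signal over background was not used here, so weak spots could not be told from strong ones.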

Other observations

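Among chemokines of the other families and chemokine receptors, 0 genes were called in the 4 comparisons. Of 16 listed CXC, CX3C and XC chemokines, 9 were measured, and 4 of the 9 lay above 0 after LPS in TAM (median log2 ratio -0.05) and 3 in PEC (median -0.04). Of all genes and features, 43.2% lay above 0 in TAM and 48.1% in PEC. Cxcl10, an interferon-induced T cell attractant, was at 3.03 ± 1.38 in TAM and 4 ± 1.45 in PEC (SD, n = 2 each, adjusted p = 0.739 and 0.165). Cxcl15, a chemokine of lung epithelium, was at -1.95 ± 4.30 in TAM and 3.82 ± 4.05 in PEC (SD, n = 2 each, adjusted p = 0.922 and 0.699). Of the 3 listed receptors of Ccl3 and Ccl4, 2 were not measured. The mean of the other, Ackr2, a decoy receptor of inflammatory CC chemokines, lay between -0.48 and 0.43 in the 4 comparisons. On single arrays of untreated TAM against PEC, Ackr2 lay between -2.54 and 2.29. Among 8 measured of 20 other chemokine receptors, Ccrl2, an atypical receptor that binds chemerin, was at 2.99 ± 1.47 in TAM and 2.41 ± 1.04 in PEC after LPS (SD, n = 2 each, adjusted p = 0.827 and 0.682), and Ccr7, which guides dendritic cells to lymph nodes, at 1.58 in each (adjusted p = 0.827 and 0.479). Ackr4, a scavenger receptor of CC chemokines, was at -1.49 ± 4.19 in TAM and 3.51 ± 3.61 in PEC (SD, n = 2 each, adjusted p = 0.908 and 0.518). Of 11 listed B and plasma cell markers, 7 were measured, with 3 above 0 and 4 below in untreated TAM against PEC (median -0.45). The 1 called was the proteoglycan gene Sdc1, which fell (-3.21 ± 0.95, SD, n = 4, adjusted p = 0.012). The background there was 0.46% of all genes and features called. Which cells gave the Sdc1 value was not tested. With the exchanged arrays not turned, 0 genes and features passed in that comparison.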
